A study of Danio rerio with 6 samples.

Results

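The genes described here are the TNF ligands, their receptors, and the adaptors, kinases and induced proteins named after them, in the injured endocardium of fish with and without MyD88. Members were chosen by symbol (tnfa, tnfb, and symbols that start with tnfsf, tnfrsf, tnfaip, traf and a digit, tradd, fadd, ripk and a digit, birc2 or birc3) and by a mean value above 5 over the 6 libraries. Of 17835 genes in the table, 44 carried such a symbol and 42 of these passed the minimum, among 16383 genes that did. The rule itself uses symbols and mean levels and no genotype difference. tnfa was not analysed here. Just inside the minimum were tnfrsf9b and tnfaip8l2b, with means of 5.67 and 6.83, and just outside it were tnfsf11 and traf5, with means of 3.67 and 3.17.

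Cells of the endocardium, the inner lining of the heart, were isolated by their krt4:EGFP signal from ventricles of adult zebrafish that all carried the ET(krt4:EGFP)sqet33-1A enhancer trap line, at 96 hours post cryoinjury (hpci). There were 3 libraries from myd88-/- fish, homozygous for the hu3568 loss-of-function allele, and 3 libraries from their myd88+/+ siblings, and each library was a pool of 4 ventricles. The mutation was present in every cell of the fish, immune cells included, and not in the endocardium alone. No clutch, collection time or sequencing run is given in the labels, so p-values measure the spread between these pools.

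TNF ligands are trimeric proteins, bound to the membrane or shed, that cluster their receptors. Receptors with a death domain recruit TRADD or FADD and can lead to caspase activation, whereas others bind TRAF adaptors directly. Many of both kinds activate NF-kB. At receptors with a death domain this can use ubiquitin chains built on RIP kinases by TRAF and cIAP ligases. MyD88, the adaptor of most Toll-like receptors and of interleukin-1 receptors, reaches NF-kB by another route that also passes through TRAF6. In vessel-lining cells, TNF signalling is known for inducing leukocyte adhesion molecules and chemokines.

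Values are normalized read counts: the study's DESeq2 size factors had been applied, and the results rounded to whole numbers. Per library they summed to 11136966 to 11348450 for mutants, against 11530505 to 11847536 for wild types. Fold changes are on the log2(value + 1) scale, myd88-/- minus myd88+/+, from a limma fit across all genes tested, and adjusted p-values are Benjamini-Hochberg values over all of them. A gene was past the criteria when its adjusted p was under 0.05 and its change exceeded 1.5-fold. Values of different genes were not set against each other, because transcript lengths were not used here.

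The labels were checked first. myd88 had 817, 575 and 849 normalized read counts in myd88-/- libraries, against 1305, 1149 and 1070 in myd88+/+ libraries. The genotypes did not overlap (log2 fold change -0.67 ± 0.17 SE, limma adjusted p 0.150). Mutants lay wholly below wild types in 8.98% of all genes tested, so this is a weak check of the labels. Endothelial markers were abundant in every library: 13 of 14 were measured, with a summed level of 62712 to 105632 across mutant libraries and 75928 to 85025 across wild-type ones. Of the 13, 7 were lower and 6 higher in mutants. By limma, 5 of the 13 had an unadjusted p under 0.05, a larger share than the 13.2% of all genes tested, and 0 an adjusted one. The highest sum, that of myd88-/- replicate 3, held 44876 from krt4, which had 12266 to 23289 in the other libraries. Markers of other cells were detected too. The 15 of 16 macrophage markers measured summed to 1775, 2342 and 4018 in myd88-/- libraries, against 4586, 6115 and 2582 in myd88+/+ libraries. Of these, 12 were lower and 3 higher. All 6 mural or smooth muscle markers summed to 3334, 5185 and 11950 against 6003, 6875 and 10284. Of these, 6 were lower and 0 higher, with a median log2 fold change of -0.44. The sum of myd88-/- replicate 3 held 8190 from acta2. Cardiomyocyte markers summed to 15249 to 21504 against 15504 to 25106. The 11 epicardial or fibroblast markers summed to 132666 to 136876 against 144625 to 161781, mostly from the matrix genes col1a2 and dcn. The study reported col1a2, postna and acta2 in its endocardial subclusters, and used Aldh1a2 as an activation marker of endocardium and epicardium. The epicardial or fibroblast and mural sums therefore do not measure other cells alone. Of these 11, 5 were lower and 6 higher, with a median log2 fold change of 0.02. The epicardial factor tcf21 had 42, 19 and 111 against 76, 59 and 45, and tbx18 had 156, 129 and 374 against 136, 110 and 104. In such bulk samples, fewer cells of a type and less RNA per cell cannot be told apart. myd88-/- replicate 3 stood apart from the rest: it exceeded the remaining 5 libraries by more than 2-fold in 267 genes, and each other library did so in 15 to 40.

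Of the 42 members, 1 differed past the criteria, the receptor gene tnfrsf11a, which was higher in mutant cells. Of all genes tested, 0.702% were past the criteria and 0.140% were so in that direction. An unadjusted p under 0.05 was reached by 5 members (11.9%), 3 higher and 2 lower, against 13.2% of all genes tested (6.20% higher and 6.97% lower). The genotypes did not overlap in 5 members (11.9%), with mutants above in 3 and below in 2, against 18.1% of all genes tested (9.09% above and 8.98% below). Both shares were below their background. Log2 fold changes had a median of 0.01 over the members and 0.01 over all genes tested, with 21 members higher and 21 lower. With libraries scaled to equal totals, 26 were higher and 16 lower, and the medians were 0.07 for the members and 0.07 for all genes tested. The other 41 members had adjusted p-values of 0.195 to 0.982.

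**Figure D1:**
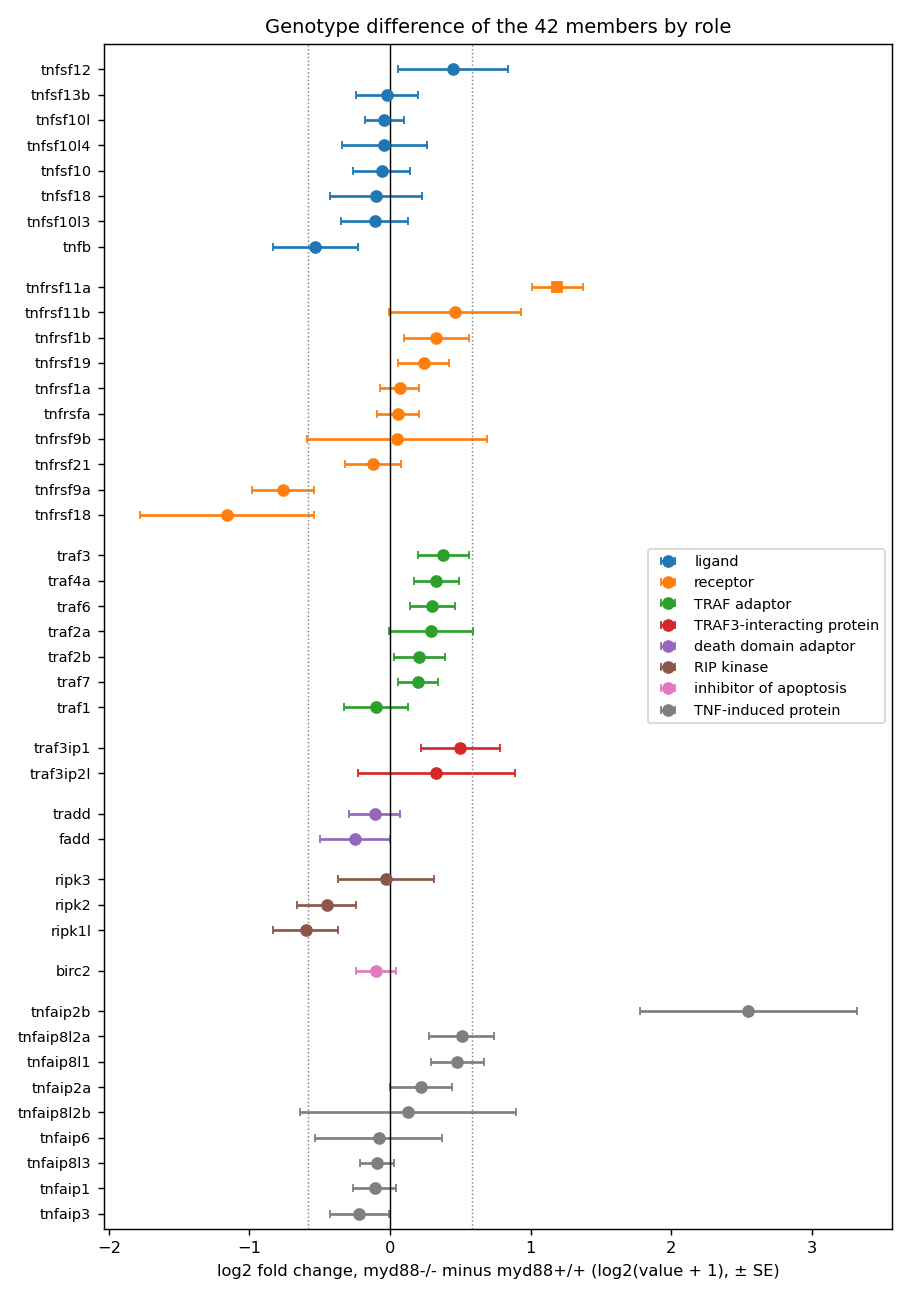
Log2 fold change (myd88-/- minus myd88+/+, ± SE) of each of the 42 members, grouped by role; dotted lines mark a 1.5-fold change, and the square marks tnfrsf11a, the 1 member past the criteria. Most points lie between the dotted lines, and the largest estimate, that of tnfaip2b at 2.55, has a wide error.

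Among the 10 receptors, tnfrsf11a rose in mutant cells. It encodes RANK, which binds RANK ligand, signals through TRAF6 and is best known in mammals for driving osteoclast formation. tnfrsf11a (ENSDARG00000087804) had 4174, 2785 and 2575 normalized read counts in myd88-/- libraries, against 1368, 1439 and 1285 in myd88+/+ libraries. All mutant libraries were above all wild-type ones, which lay close together, and myd88-/- replicate 1 was the highest. The means were 3178 ± 869 and 1364 ± 77.1 (SD, n = 3 each), a 2.28-fold difference with a log2 fold change of 1.19 ± 0.18 (SE), a 95% interval of 0.78 to 1.60 and a limma adjusted p of 0.0232. The direction was the same whichever library was left out (0.97 to 1.32). The call was not: the adjusted p was 0.0596 without myd88-/- replicate 2, and 0.0940, 0.133 and 0.102 without myd88+/+ replicates 1, 2 and 3, against 0.0412 and 0.00814 when myd88-/- replicates 1 and 3 were left out. It was 0.148 without an intensity trend and 0.0626 with the replicate number as a block.

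On chromosome 24 (danRer11), tnfrsf11a occupies 18485866 to 18510631, minus strand, at 1.68 Mb from the mutated gene. Genes past the criteria were frequent around myd88: 16 of 211 genes tested within 10 Mb of it (7.58%), 8 higher and 8 lower, against 99 of 16172 elsewhere (0.612%). An effect of MyD88 loss and one of other alleles that were inherited with the mutation cannot be told apart for genes in this stretch. The 4 genes tested on either side of tnfrsf11a, 8 in all, were not past the criteria (adjusted p 0.355 to 0.932), and the nearest of them had log2 fold changes of 0.39 (si:dkey-73n8.3) and -0.32 (relch). Some of the 8 had values too low for a call to be likely. These were si:dkey-73n8.3 (8, 7 and 4 in myd88-/- libraries against 7, 4 and 3), C24H8orf34 (5, 4 and 4 against 5, 2 and 12) and cntnap2a. cntnap2a had 2, 5 and 2 against 12, 11 and 4 (log2 fold change -1.28). No listed gene overlapped tnfrsf11a. tnfsf10 was the other member on this chromosome, 6.74 Mb from myd88. It encodes TRAIL, a ligand of death receptors. Its values of 246, 218 and 246 in myd88-/- libraries fell within the range of 187, 317 and 250 in myd88+/+ libraries (log2 fold change -0.06 ± 0.20 SE).

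**Figure D2:**
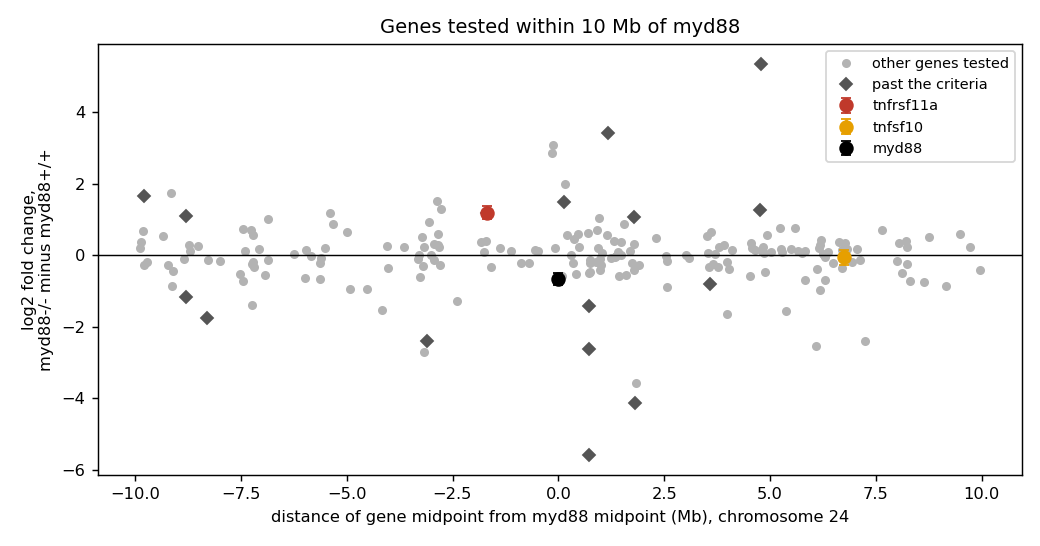
Log2 fold change (myd88-/- minus myd88+/+) of the genes tested within 10 Mb of myd88 on chromosome 24, against their distance from myd88 in Mb. Diamonds are the other genes past the criteria and error bars of the named genes are SE. tnfrsf11a at 1.19 is among the 16 genes past the criteria in this whole window, 8 higher and 8 lower. The 4 genes tested on either side of it were not past them. tnfsf10 at -0.06 lies close to the zero line.

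For the partners of RANK, no such difference could be shown or excluded. tnfsf11, which encodes RANK ligand, was under the minimum and not tested, with values of 5, 1 and 6 in mutant libraries against 2, 7 and 1 in wild-type ones. tnfrsf11b, which encodes the decoy receptor osteoprotegerin, had 82, 79 and 89 in myd88-/- libraries, against 100, 89 and 24 in myd88+/+ libraries. The last value, from myd88+/+ replicate 3, was less than that of each other library by more than 2-fold, and the remaining 5 libraries lay close together. The log2 fold change of 0.46 ± 0.47 (SE) was -0.18 to 0.83 with 1 library left out. Its 95% interval of -0.6 to 1.53 included both 0 and the estimate of tnfrsf11a.

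The receptors of TNF itself showed no detectable difference. tnfrsf1a, the death domain receptor through which soluble TNF mainly acts, had 2281, 2468 and 2639 in myd88-/- libraries, against 2700, 2380 and 2001 in myd88+/+ libraries. The genotypes overlapped throughout, with a log2 fold change of 0.07 ± 0.14 (SE) and a 95% interval of -0.25 to 0.39 (adjusted p 0.874). Leaving out myd88+/+ replicate 3 turned the estimate to -0.04. tnfrsf1b, the TRAF-binding TNF receptor, had 124, 118 and 169 in myd88-/- libraries, against 136, 102 and 89 in myd88+/+ libraries. Here the highest library was mutant and the lowest wild type, and the interval ran from -0.18 to 0.84 (adjusted p 0.580).

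tnfrsf9a, the counterpart of a mammalian T cell costimulatory receptor, had an unadjusted p under 0.05 but did not pass the test after adjustment. Its values were 2109, 2742 and 1696 in myd88-/- libraries, against 4168, 2703 and 4208 in myd88+/+ libraries. Only myd88-/- replicate 2 and myd88+/+ replicate 2 crossed, by a small margin. The means were 2182 ± 527 and 3693 ± 858 (SD, n = 3 each), with a log2 fold change of -0.76 ± 0.22 (SE), an unadjusted p of 0.00751 and a limma adjusted p of 0.195. Leaving out 1 library gave -0.97 to -0.59. Of 10 listed T or NK cell markers, 4 were measured, and most of their sum came from cd3eap, which is not specific to T cells. The others were low: zap70 had 4, 12 and 18 in myd88-/- libraries, against 6, 13 and 13 in myd88+/+ libraries. cd4-1 had 7, 10 and 13 against 6, 21 and 7, and cd28 had 7, 11 and 3 against 11, 5 and 2. The part of T or NK cells in the difference of tnfrsf9a was not tested. tnfrsf9b, the paralog of tnfrsf9a, stayed near the minimum at 5, 7 and 4 against 5, 11 and 2.

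tnfrsf18, another costimulatory receptor of mammalian T cells, varied widely between pools. It had 22, 34 and 126 in myd88-/- libraries, against 190, 60 and 96 in myd88+/+ libraries. myd88-/- replicate 3 exceeded all but the highest wild-type library, and the log2 fold change of -1.16 ± 0.62 (SE) had an interval that included 0 (-2.56 to 0.24). Its ligand gene tnfsf18 also overlapped, with 178, 248 and 137 against 296, 204 and 123. The remaining receptors were tnfrsf19, tnfrsf21 and tnfrsfa, with log2 fold changes of 0.24, -0.12 and 0.06 and adjusted p-values of 0.613, 0.847 and 0.894. tnfrsfa was among the steadiest: 4709, 3771 and 3658 in myd88-/- libraries against 3444, 3817 and 4345 in myd88+/+ libraries, an interval of -0.27 to 0.39.

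None of the 8 ligands passed the test, and in none were the genotypes apart. Their log2 fold changes ran from -0.53 to 0.45 with a median of -0.05, 7 of them below 0, but only 3 of 8 were below 0 with libraries scaled to equal totals, where the median was 0.01. The TRAIL-like genes tnfsf10l, tnfsf10l3 and tnfsf10l4, zebrafish paralogs of tnfsf10, lay at -0.04, -0.11 and -0.04. tnfsf13b, which encodes the B cell survival factor BAFF, lay at -0.02 ± 0.22 (SE).

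The largest negative estimate among the ligands was that of tnfb, a zebrafish TNF gene that the table describes as lymphotoxin-alpha. It had 37, 54 and 71 in myd88-/- libraries, against 76, 96 and 60 in myd88+/+ libraries. myd88-/- replicate 3 exceeded myd88+/+ replicate 3, so the genotypes overlapped (log2 fold change -0.53 ± 0.30 SE, adjusted p 0.481). Ordered by tnfb, the 6 libraries came in the same order as by the summed macrophage markers given above, which was so for no other member and for 45 of all genes tested (0.275%). This order was noticed after the values were seen, and the part of macrophage RNA in the level of tnfb was not tested.

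tnfsf12, which encodes TWEAK, was the 1 member that myd88-/- replicate 3 held at more than 2-fold above each other library. It had 67, 81 and 215 in myd88-/- libraries, against 82, 65 and 85 in myd88+/+ libraries. The log2 fold change of 0.45 ± 0.39 (SE) was -0.06 without that library, and the difference rested on it.

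**Figure D3:**
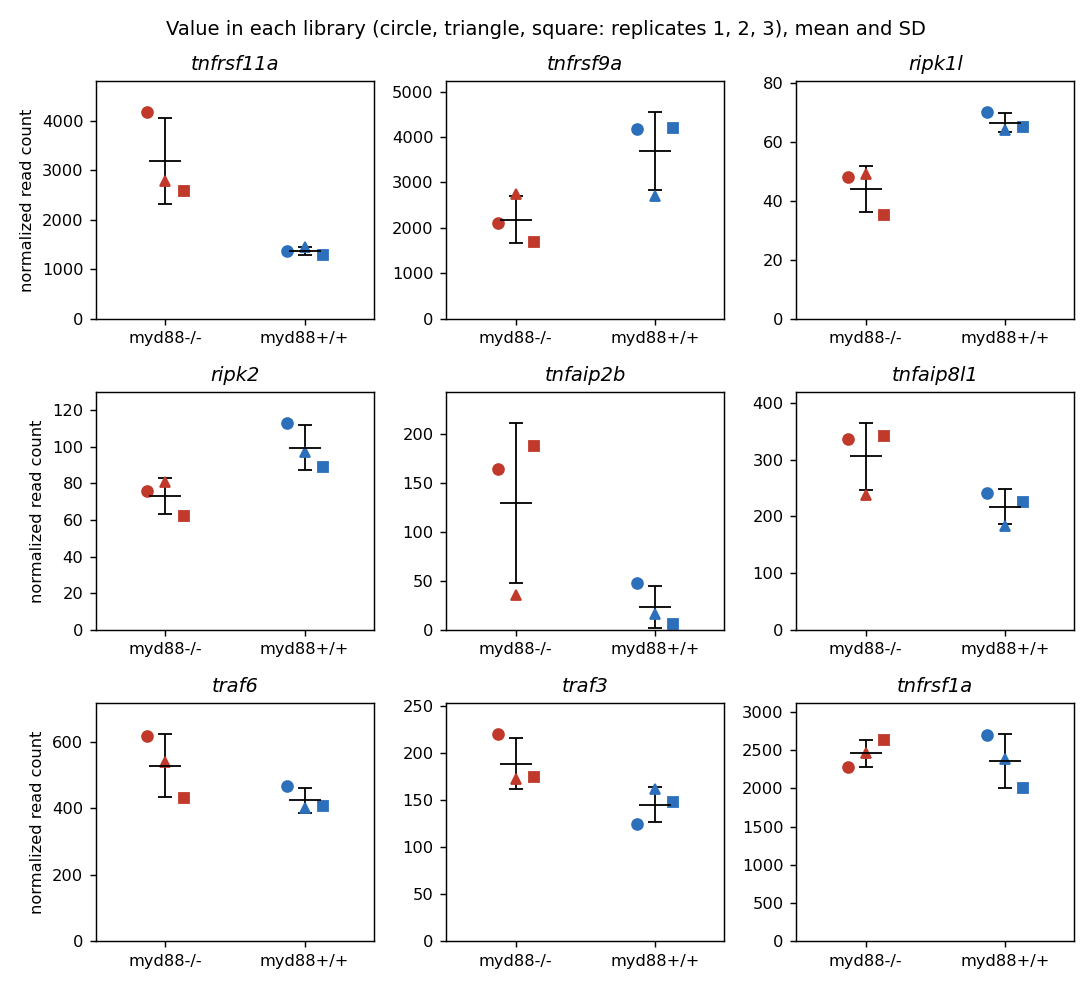
Normalized read counts of 9 members in each library, myd88-/- left and myd88+/+ right of each panel, with the mean and SD of the 3 libraries; symbols mark replicates. tnfrsf11a, ripk1l, ripk2 and traf3 show no overlap between the genotypes, while tnfrsf1a overlaps fully.

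None of the TRAF adaptors, ubiquitin ligases or scaffolds that bind the receptors' tails, passed the test. Of the 7 measured, 6 were above 0 and traf1 was below, with a median log2 fold change of 0.29, a range of -0.10 to 0.38 and adjusted p-values of 0.414 to 0.883. This count of 6 was the same with libraries scaled to equal totals or equal medians, where the TRAF medians were 0.34 and 0.26 and those of all genes tested 0.07 and -0.02. An unadjusted p under 0.05 was reached by 0 of the 7 in limma, and no other kind of test was run for them.

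traf6, the adaptor shared by MyD88 and RANK signalling, had 616, 540 and 429 in myd88-/- libraries, against 467, 399 and 406 in myd88+/+ libraries. The lowest mutant library lay among the wild-type ones. The means were 528 ± 94.0 and 424 ± 37.4 (SD, n = 3 each), a log2 fold change of 0.30 ± 0.16 (SE) with an interval of -0.06 to 0.67 and an adjusted p of 0.464. traf3, a brake on non-canonical NF-kB signalling, was the TRAF gene with no overlap: 220, 172 and 174 in myd88-/- libraries against 125, 162 and 148 in myd88+/+ libraries (0.38 ± 0.18 SE, adjusted p 0.414).

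traf2a and traf2b, the paralogs of the adaptor that brings cIAP ligases to TNF receptors, overlapped between genotypes. traf2b had 220, 181 and 211 in myd88-/- libraries, against 211, 169 and 152 in myd88+/+ libraries, with an interval of -0.19 to 0.61 (adjusted p 0.657). It overlaps coq4 and fbxw5 on the other strand, and whether the counting used strand is not given in the sources used here. traf2a had 26, 25 and 31 against 18, 24 and 25, with an interval of -0.39 to 0.96 (adjusted p 0.731). traf4a and traf7, less tied to TNF receptors, lay at 0.33 and 0.20, and traf5 was under the minimum at 3, 3 and 6 against 2, 4 and 1.

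A pair of genes carries a TRAF name without being TRAFs. traf3ip1, a component of intraflagellar transport in cilia, had 33, 38 and 33 in myd88-/- libraries, against 26, 27 and 20 in myd88+/+ libraries, without overlap but with an adjusted p of 0.481. traf3ip2l, related to a mammalian adaptor of interleukin-17 receptors, varied 5.09-fold over the 6 libraries: 91, 22 and 112 against 60, 61 and 31.

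All 3 RIP kinases had estimates below 0 (2 of 3 with libraries scaled to equal totals), and none passed the test. ripk1l, the zebrafish counterpart of the kinase on which TNF receptor complexes build their ubiquitin chains, had 48, 49 and 35 in myd88-/- libraries, against 70, 64 and 65 in myd88+/+ libraries. All mutant libraries were below all wild-type ones. The means were 44.0 ± 7.81 and 66.3 ± 3.21 (SD, n = 3 each), a log2 fold change of -0.60 ± 0.23 (SE) with an interval of -1.13 to -0.07, an unadjusted p of 0.0313 and a limma adjusted p of 0.327. ripk2, the kinase of NOD receptor signalling, did not overlap either, with 76, 81 and 62 in myd88-/- libraries against 113, 97 and 89 in myd88+/+ libraries (-0.45 ± 0.21 SE, adjusted p 0.397). These were the members with mutants wholly below wild types. ripk3, the kinase of necroptosis, had 39, 22 and 21 against 29, 22 and 30 and showed no separation.

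For the death domain adaptors and birc2, no difference beyond the spread was detected. fadd, which links death receptors to caspase-8, had 53, 74 and 44 in myd88-/- libraries, against 69, 62 and 69 in myd88+/+ libraries, with an interval of -0.82 to 0.31 (adjusted p 0.712). Wild-type libraries lay inside the mutant range. tradd, the adaptor of tnfrsf1a, had 127, 165 and 150 against 166, 174 and 138, with an interval of -0.52 to 0.29 (adjusted p 0.833). birc2, the cIAP ubiquitin ligase, had 1252, 1616 and 1379 in myd88-/- libraries, against 1385, 1500 and 1648 in myd88+/+ libraries. Its interval ran from -0.41 to 0.21 (adjusted p 0.805). It overlaps polq on the other strand.

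Genes named as TNF-induced proteins are a mixed group, not named for a shared role. They are named for how they were found in human cells or, as with the tnfaip8l genes, after a related gene. None of the 9 passed the criteria. tnfaip3, which encodes a ubiquitin-editing enzyme that ends NF-kB signalling, had 151, 178 and 163 in myd88-/- libraries, against 224, 220 and 140 in myd88+/+ libraries. myd88+/+ replicate 3 was the lowest of all, so the genotypes overlapped, and the log2 fold change of -0.22 ± 0.21 (SE) had an interval of -0.69 to 0.26 (adjusted p 0.708).

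tnfaip2b, a paralog of a gene known in mammals for membrane protrusions between cells, had the largest estimate of all members and the second widest spread. It had 165, 36 and 188 in myd88-/- libraries, against 48, 16 and 6 in myd88+/+ libraries. myd88-/- replicate 2 lay below myd88+/+ replicate 1. The means were 130 ± 81.9 and 23.3 ± 21.9 (SD, n = 3 each), and the log2 fold change of 2.55 ± 0.77 (SE) had an unadjusted p of 0.00932 and a limma adjusted p of 0.208. The paralog tnfaip2a showed no such pattern, with 201, 223 and 230 against 162, 152 and 266.

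tnfaip8l1, of a family of lipid-binding proteins, had 337, 238 and 342 in myd88-/- libraries, against 242, 183 and 226 in myd88+/+ libraries. Only myd88-/- replicate 2 fell within the wild-type range. The means were 306 ± 58.7 and 217 ± 30.5 (SD, n = 3 each), with a log2 fold change of 0.48 ± 0.19 (SE), an unadjusted p of 0.0324 and an adjusted p of 0.331. Other genes of this family were tnfaip8l2a at 0.51 ± 0.23 (SE), tnfaip8l3 at -0.09 ± 0.12 (SE) and tnfaip8l2b, with values of 1, 10 and 14 against 5, 6 and 5. tnfaip1, an adaptor of a ubiquitin ligase, lay at -0.11 ± 0.15 (SE).

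tnfaip6, which encodes a secreted hyaluronan-binding protein of inflamed and remodelling matrix, differed more within the mutants than between genotypes. It had 3285, 5349 and 13412 in myd88-/- libraries, against 9382, 5080 and 5797 in myd88+/+ libraries. Mutant libraries were both the lowest and the highest, and the log2 fold change of -0.08 ± 0.45 (SE) was 0.38 when myd88-/- replicate 1 was left out and -0.64 when myd88-/- replicate 3 was.

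A spread of this size marked several members. The SD of log2 values within a genotype reached 1 or more in 7 members, against a median over the members of 0.23 in myd88-/- and 0.24 in myd88+/+ libraries, which was 0.25 and 0.24 over all genes tested. The 7 were tnfaip8l2b, tnfaip2b, tnfrsf18, traf3ip2l, tnfrsf11b, tnfaip6 and tnfrsf9b. Of these, tnfaip8l2b and tnfrsf9b were near the minimum, with means of 6.83 and 5.67, where counting error is large. The share of all genes tested with such an SD is not given here. Of all 42 members, 27 kept the sign of their log2 fold change whichever library was left out and 15 did not. The share of all genes tested that kept it is not given here either.

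**Figure D4:**
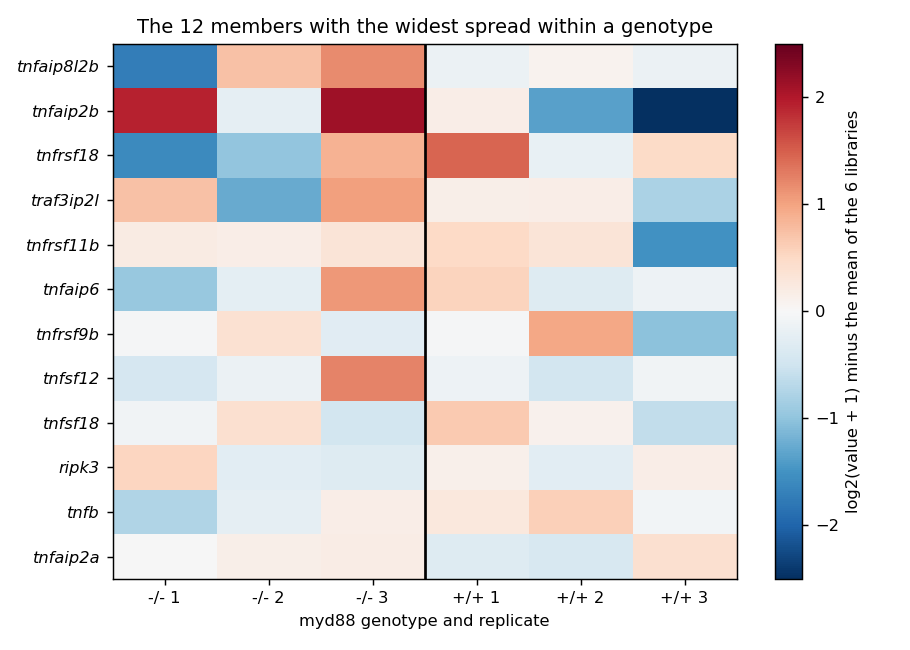
Deviation of log2(value + 1) from the mean of the 6 libraries for the 12 members with the widest SD within a genotype, in myd88-/- libraries 1 to 3 (left) and myd88+/+ libraries 1 to 3 (right). High and low libraries differ from gene to gene, as in tnfsf12, with 1 high mutant library, and tnfrsf11b, with 1 low wild-type library.

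Genes that act beside the members were then examined, from a list of 79 symbols of death receptor, caspase, kinase, ubiquitin and NF-kB genes. The list gave 60 genes tested, among them 2 overlapping entries named otulina, both with estimates above 0. Of these 60, 2 were past the criteria, both lower, against 0.562% of all genes tested. This list and the NF-kB response list below were chosen with earlier results of these data known, so their counts are not a test of enrichment. An unadjusted p under 0.05 was reached by 7 (11.7%), 4 higher and 3 lower. This share was below the 13.2% of all genes tested (6.20% higher and 6.97% lower). Estimates were above 0 in 38 and below 0 in 22, with a median log2 fold change of 0.13 (63.3% higher, against 51.1% of all genes tested), and the median was 0.19 and 0.10 with libraries scaled to equal totals and equal medians.

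xiap, an inhibitor of caspases related to birc2, fell. It had 368, 425 and 517 in myd88-/- libraries, against 987, 969 and 882 in myd88+/+ libraries. The genotypes were far apart, with means of 437 ± 75.2 and 946 ± 56.2 (SD, n = 3 each), a log2 fold change of -1.13 ± 0.15 (SE) and, by limma, an adjusted p of 0.0133. xiap, on chromosome 14, overlaps nxt2 on the other strand. Its adjusted p was 0.0582 and 0.0573 without myd88-/- replicates 1 and 2, 0.0660 and 0.103 without myd88+/+ replicates 1 and 2, 0.108 without an intensity trend and 0.0685 with the replicate number as a block, with log2 fold changes of -1.25 to -1.01. The other gene past the criteria was nfkbiab, which encodes an inhibitor of NF-kB that NF-kB itself induces, at 2024, 1772 and 2000 in myd88-/- libraries against 3923, 5968 and 5296 in myd88+/+ libraries (-1.37 ± 0.17 SE, limma adjusted p 0.00790, 0.0604 without myd88+/+ replicate 2, 0.0950 without a trend and 0.0508 with the block).

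The genotypes did not overlap in 14 of the 60 genes (23.3%), against 18.1% of all genes tested. Mutants were above in 9 of these and below in 5. Members of this list with an unadjusted p under 0.05 lay on both sides. Without overlap and above wild type were nfkb2, a subunit of non-canonical NF-kB, with 527, 472 and 476 in myd88-/- libraries against 345, 383 and 356, and cylda, a deubiquitinase that trims RIP kinase chains, with 275, 275 and 256 against 185, 192 and 205. Below wild type was otud7b, a deubiquitinase known for acting on TRAF3, with 254, 272 and 261 against 359, 320 and 405. Their adjusted p-values were 0.187, 0.201 and 0.221. ikbkg, the regulatory subunit of the IKK complex, and nfkbib were also above wild type without overlap. They lay at 0.29 and 0.30 with adjusted p-values of 0.353 and 0.370. The receptor genes fas and cd40 had log2 fold changes of 0.27 and 0.27, and casp8, the caspase recruited by fadd, 0.05, all with intervals that included 0.

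Known NF-kB response genes were taken from a list of 38 symbols. It gave 29 genes tested, of which 6 also stood in the list above. Estimates were above 0 in 12 and below 0 in 17, with a median log2 fold change of -0.16 that was -0.10 and -0.19 with libraries scaled to equal totals and equal medians. nfkbiab, already counted in the list above, was the 1 gene with a limma adjusted p under 0.05. An unadjusted p under 0.05 was reached by 6 of the 29 (20.7%), 3 higher and 3 lower, against 13.2% of all genes tested. The higher were nfkb2, given above, ZC3H12A, which encodes an RNase that degrades cytokine mRNAs in mammals, and bcl3, a nuclear cofactor of NF-kB. ZC3H12A had 376, 307 and 329 in myd88-/- libraries against 290, 214 and 254 in myd88+/+ libraries, without overlap (0.42 ± 0.16 SE, adjusted p 0.320). A separate gene matched by the same symbol, zc3h12a, had low values of 6, 4 and 7 against 6, 4 and 4 (0.23 ± 0.52 SE). bcl3 had 683, 417 and 922 against 475, 431 and 277, with overlap (0.74 ± 0.30 SE, adjusted p 0.340). The lower were nfkbiab, vcam1b and il1b. vcam1b, a leukocyte adhesion molecule, had 7215, 5244 and 7261 in myd88-/- libraries against 8897, 12771 and 14958 in myd88+/+ libraries (-0.88 ± 0.21 SE, adjusted p 0.139), and the cytokine gene il1b had 4, 6 and 6 against 21, 18 and 13 (adjusted p 0.177). Neither vcam1b nor il1b overlapped between genotypes, which was so for 7 of the 29 genes (24.1%), against 18.1% of all genes tested. The values of il1b were low, and the part of macrophage RNA in its level was not tested. Other response genes of adhesion and neutrophil recruitment lay on both sides of 0 and did not pass. The adhesion gene sele, induced by TNF in mammalian endothelium, overlapped, with 5547, 2675 and 5666 against 3901, 4516 and 2464 (log2 fold change 0.32). So did the adhesion gene vcam1a, at low values of 3, 2 and 10 against 7, 14 and 9 (log2 fold change -1.06 ± 0.62 SE). Of 2 neutrophil chemokine genes, cxcl18b had 2016, 1899 and 2221 in myd88-/- libraries against 2116, 1636 and 828 in myd88+/+ libraries, with overlap (0.52 ± 0.29 SE, adjusted p 0.485). cxcl8a had 61, 103 and 108 against 114, 114 and 119, without overlap (-0.39 ± 0.24 SE, adjusted p 0.534).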

How the data were processed

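Per the labels, RNA was isolated from sorted krt4:EGFP+ cells and polyadenylated RNA was sequenced. Per the study's methods and the submitters' processing notes, reads were trimmed with Trimmomatic 0.39, aligned with STAR 2.7.10a to danRer11, filtered with Picard 3.0.0 (duplicates, multimapping, ribosomal and mitochondrial reads) and counted over exons with featureCounts 2.0.4, leaving out reads over several genes. Removal of multimapping reads lowers near-identical copies. The deposited values are a score: the authors divided the counts by DESeq2 1.36.0 size factors and rounded them to whole numbers, so exact counts were not used and no count test was run. Read as counts, values of 10, 100 and 1000 carry counting errors of about 31.6%, 10.0% and 3.16%.

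Genes with a mean above 5 were tested with limma 3.58.1 (R 4.3.3; lmFit, eBayes with an intensity trend) on log2(value + 1), with genotype as the only term, a scale that understates changes of low genes. The script was tested on simulated data. A gene-name table held all 42 member identifiers, 25 with the same symbol in the same case. Members and lists were chosen with earlier results of these data known. Values in every library and test results are given for tnfrsf1a, tnfrsf1b, traf2a, traf2b, traf3, traf6, ripk1l, ripk2, fadd, tradd, birc2 and tnfaip3 and for members with an unadjusted p under 0.05. Members without overlap are given by value, and other pathway genes were named at an adjusted p under 0.05. Any other gene or library pattern was named after its values were seen. Alternatives were pseudocounts of 0.5 and 5, no minimum and a minimum of 20, equal totals or medians, no trend, library weights, voom weights, a replicate block and leaving out each library.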

Additional observations from a re-analysis of the deposited data

How the results depend on the processing

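The number of genes past the criteria was 115. It was 25 without an intensity trend, 282 with library weights, 45 with the replicate block and 28 to 247 with 1 library left out. It stayed within 1.5 times of 115 in the 8 other alternatives. The number of members past the criteria was 0 without a trend and 0 with the replicate block, and 0 to 1 with 1 library left out. The numbers with an adjusted p under 0.05 were 0 without a trend and 0 with the replicate block both among other TNF signalling genes and among NF-kB response genes, and 0 to 2 in each with 1 library left out. The causes were not tested. The median over the members ran from -0.02 to 0.09 over the alternatives, with an SD of 0.073 between libraries of a genotype. tnfrsf1a changed sign in 1 alternative, with -0.04 to 0.17 over the fits with 1 library left out. The log2 fold change of myd88 stayed between -0.77 and -0.49, with adjusted p-values of 0.0655 to 0.411. tnfrsf11a kept its direction in all 16 alternatives and its call in 10, with adjusted p-values of 0.00814 to 0.148. No pairing by replicate number was seen. Deviations from the genotype means correlated at -0.12, 0.13 and -0.137 between same-numbered libraries across genes, and at -0.18 to 0.247 between the others. Whether libraries shared a clutch or batch was not tested, and the blocked fit is given as an alternative. Genes with values under about 100, such as the RIP kinases, are limited by counting error as well as by 3 pools per genotype.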
